A study of Mus musculus with 6 samples.

Results

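The vertebrate Hox clusters, arrays of homeobox genes whose order follows the position along the body axis in which they act, also hold microRNA genes. The 7 mature miRNAs described here come from them. They were chosen by name, as the entries of the table of known miRNAs for mmu-miR-10a-5p, mmu-miR-10a-3p, mmu-miR-10b-5p, mmu-miR-10b-3p, mmu-miR-196a-5p, mmu-miR-196b-5p and mmu-miR-615-3p (mmu for mouse, left out from here on where no value of a member is introduced), and they are 7 of its 1978 miRNAs. All 7 had counts in every library and all 7 were among the 619 miRNAs that passed the filter on low counts. miR-615-3p passed through the 3 control libraries and hypoxia library A, since hypoxia libraries B and C lay below the minimum.

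The small RNA libraries were made from c-kit+ cardiac progenitor cells, that is, heart cells sorted by magnetic beads for the receptor tyrosine kinase c-kit from wild-type (WT) male C57BL/6 mice of 4-6 weeks. Cells with 12 hours of hypoxic culture (3 libraries) were set against control cells labelled 0 hours (3 libraries). The treatment label says hypoxia for the control samples as well, and no oxygen level is stated in the sources used here. Unless the controls were cultured equally long, hypoxia and time in culture cannot be told apart. The extraction label speaks of RNA of exosomes and the design text of RNA of cells, a point that was not settled. Columns carry the digit 0 or 1 and a letter. Here 0 was taken to mean control (0 hours) and 1 hypoxia, a reading on which all directions given depend. No label holds the letters A, B and C. They name the libraries here and, since libraries of the same letter deviated together, also serve as a block. The labels call the libraries biological replicates but name no separate animals or cultures. The p-values therefore rest on library-to-library spread, part of which may be technical.

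Like other miRNAs, those of the Hox clusters are cut from a hairpin into a 5p and a 3p arm, and a target mRNA is recognised mainly through the seed, bases 2 to 8. miR-10 lies beside the Hox genes of group 4 and miR-196 at or near those of group 9, and Hox mRNAs are among the targets of both. In mouse embryos miR-196 directs cleavage of the Hoxb8 mRNA, and in zebrafish miR-10 represses HoxB1a and HoxB3a. In human endothelial cells miR-10a dampens inflammatory signalling. A cell keeps much of the Hox expression of the body level from which it arose.

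The mature sequences, from RefSeq on GRCm38.p6 (matched for 7 of 7 members), are printed 5′ to 3′ with the seed in capitals to show which members share one.
miR-10a-5p: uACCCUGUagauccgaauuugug
miR-10b-5p: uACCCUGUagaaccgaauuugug
miR-10a-3p: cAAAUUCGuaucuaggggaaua
miR-10b-3p: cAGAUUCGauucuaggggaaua
miR-196a-5p: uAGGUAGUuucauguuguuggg
miR-196b-5p: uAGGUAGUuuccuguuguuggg
miR-615-3p: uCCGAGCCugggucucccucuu
The 5p arms of miR-10a and miR-10b share their seed and differ by 1 base, U12A, counted from 1 at the 5′ end of miR-10a-5p. The 5p arms of miR-196a and miR-196b likewise share a seed and differ by A12C, counted in the same way from miR-196a-5p. No other miRNA of the table with a RefSeq sequence carries either seed. The miR-10 3p arms differ by 3 bases, 1 of them inside the seed (A3G), so their seeds are not the same. The sources used here do not say how mismatches and reads matching several miRNAs were treated, so reads could be split between the paralogs. No member had counts within 1% of those of another miRNA in every library.

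Mir10a lies in the Hoxb cluster at chr11:96317165-96317274 (plus strand, GRCm38, GENCODE M21), outside any gene annotated on its strand and 993 bp before Hoxb4. Mir196a-1 lies in the same cluster at chr11:96265164-96265265 (plus strand), likewise outside any gene on its strand and 6192 bp before Hoxb9. Mir10b lies in the Hoxd cluster at chr2:74726070-74726137 (plus strand), within introns of Hoxd3 and Hoxd4. Mir196b lies in the Hoxa cluster at chr6:52230081-52230165 (minus strand), over exons and introns of noncoding Hoxa9 transcripts and 1032 bp after the end of Hoxa10. In the Hoxc cluster, Mir196a-2 lies at chr15:102973350-102973434 (plus strand) in an intron of a noncoding Hoxc5 transcript, and Mir615 at chr15:103014910-103015001 (plus strand) in an intron of Hoxc5. The mature miR-196a-5p is the same from Mir196a-1 and Mir196a-2, so its counts pool both loci.

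**Figure D1:**
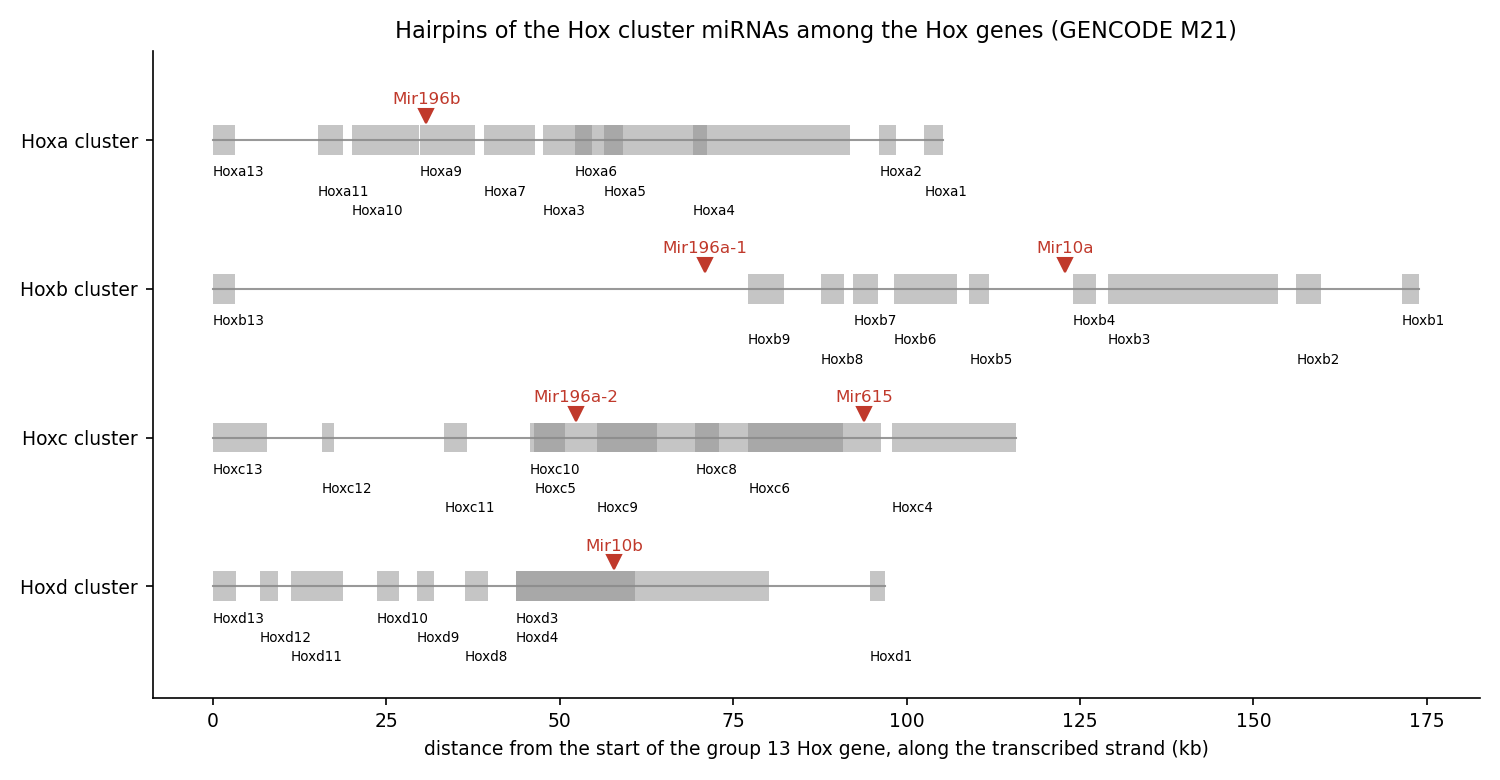
Map of the 4 Hox clusters drawn along the transcribed strand, with distance in kb from the start of the group 13 gene on the x axis, Hox genes as grey boxes and the 6 miRNA hairpins as red triangles. Mir10a and Mir10b sit at the Hox genes of group 4, the Mir196 hairpins at or near those of group 9, and Mir615 in Hoxc5.

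Known miRNA counts per library ran from 13170756 to 16975987 in hypoxia and from 12285970 to 15166638 in control. Levels are given in CPM, counts per 1e+06 counts of a library after TMM, a correction for differences in library composition. miR-210-3p, a target of the hypoxia-inducible factors, had 674, 468 and 440 CPM in A, B and C of hypoxia, against 188, 296 and 212 CPM in A, B and C of control, without overlap. The tested endothelial markers, both arms of miR-126a, summed to 200685 to 238090 CPM in hypoxia and 227224 to 249670 CPM in control. Cardiomyocyte markers (4 of 6 tested) summed to 104 to 176 CPM in hypoxia and 77.2 to 172 CPM in control. Most of that was miR-1a-3p, whose groups overlapped, and miR-208b-3p was at 0 in some libraries. miR-133b-3p (log2 fold change 1.17, 9 to 55 counts) and the untested miR-208a-3p were higher in hypoxia without overlap. The 4 tested markers had a median log2 fold change of 0.54, and the edgeR test described below called 0 of them.

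The level of the Hox cluster miRNAs was almost wholly that of the miR-10 5p arms. The 7 together held 0.886%, 1.07% and 0.999% of known miRNA counts in A, B and C of hypoxia, against 0.830%, 1.09% and 1.04% in A, B and C of control. The lowest share, in control A, had an exact Clopper-Pearson 95% interval of 0.825% to 0.836%, and such intervals leave out all but the counting error, as reads copied by PCR are no separate molecules. The means were 0.985% ± 0.0933 in hypoxia and 0.988% ± 0.138 in control (SD, n = 3 each), and the difference of -0.0025 percentage points did not exceed the spread between libraries (p = 1 by a two-sided exact permutation test, which cannot go below 0.1). On average over the 6 libraries, miR-10a-5p made 61.1% of these counts and miR-10b-5p 38.2%. The shares of the others were 0.368% for miR-10a-3p, 0.190% for miR-196b-5p, 0.179% for miR-10b-3p, 0.0191% for miR-615-3p and 0.0179% for miR-196a-5p.

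mmu-miR-10a-5p, the guide arm of the Hoxb hairpin beside Hoxb4, stood at 5308, 6497 and 5911 CPM in A, B and C of hypoxia, against 5204, 6973 and 6242 CPM in A, B and C of control. It ranked between 20 and 22 among all known miRNAs of a library. mmu-miR-10b-5p, from the Hoxd hairpin, stood at 2931, 4579 and 3555 CPM in A, B and C of hypoxia, against 2992, 5116 and 3739 CPM in A, B and C of control. The groups overlapped for both, and in each group library A was the lowest and library B the highest.

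Next below these 2 arms came mmu-miR-10a-3p, and the mean level of miR-10b-5p was 106 times its own. mmu-miR-10a-3p stood at 34.3, 34.0 and 36.4 CPM in hypoxia and 32.2, 35.3 and 43.0 CPM in control (libraries A, B and C). mmu-miR-10b-3p stood at 16.5, 20.1 and 17.8 CPM in hypoxia and 15.0, 19.4 and 16.9 CPM in control, again for A, B and C. The 3p arms of miR-10 are the ones that are mostly discarded after the hairpin is cut. Their highest over lowest value was 1.33 for miR-10a-3p and 1.34 for miR-10b-3p. Of the guide arms, that of miR-10a-5p was also 1.34 and that of miR-10b-5p was 1.75.

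Of the miR-196 guide arms, the Hoxa-encoded mmu-miR-196b-5p was the higher. miR-196b is known from mouse leukaemia models, where it is expressed with the HoxA genes. Its level was 12.7, 17.8 and 25.3 CPM in A, B and C of hypoxia, against 12.6, 18.1 and 26.6 CPM in A, B and C of control. mmu-miR-196a-5p, from the Hoxb and Hoxc hairpins, had 18, 43 and 22 counts in A, B and C of hypoxia, or 1.08, 2.64 and 1.60 CPM, against 15, 43 and 19 counts, or 1.21, 3.30 and 1.21 CPM, in A, B and C of control. The groups lay over each other for both miRNAs. For miR-196b-5p the level rose from A to B to C in both groups. For miR-196a-5p B was the highest in both, but controls A and C were level.

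mmu-miR-615-3p, from the intron of Hoxc5, was the member with the largest difference between the groups. It had 32, 8 and 8 counts in A, B and C of hypoxia, or 1.92, 0.491 and 0.581 CPM. In controls A, B and C it had 56, 15 and 26 counts, or 4.53, 1.15 and 1.66 CPM. Hypoxia A lay above controls B and C, so the groups overlapped, but within each letter the hypoxia library was the lower. An exact Poisson 95% interval for a count of 8 runs from 3.45 to 15.8, so the 2 lowest libraries are known only roughly.

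In the order of mean level, miR-10a-5p lay above miR-10b-5p in 6 of 6 libraries, although its lowest library (5204 CPM) was only just above the highest of miR-10b-5p (5116 CPM). The ranges of miR-10b-5p and miR-10a-3p, of miR-10a-3p and miR-196b-5p, and of miR-10b-3p and miR-196a-5p did not overlap either. miR-196b-5p and miR-10b-3p did not differ beyond their spread, with miR-196b-5p the higher in 2 of 6 libraries. miR-196a-5p and miR-615-3p did not either, with miR-196a-5p the higher in 3 of 6. Capture of a small RNA in a library depends on its sequence and was not corrected, so differences in level between miRNAs of nearly equal length (22 or 23 bases) are those of the counts.

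**Figure D2:**
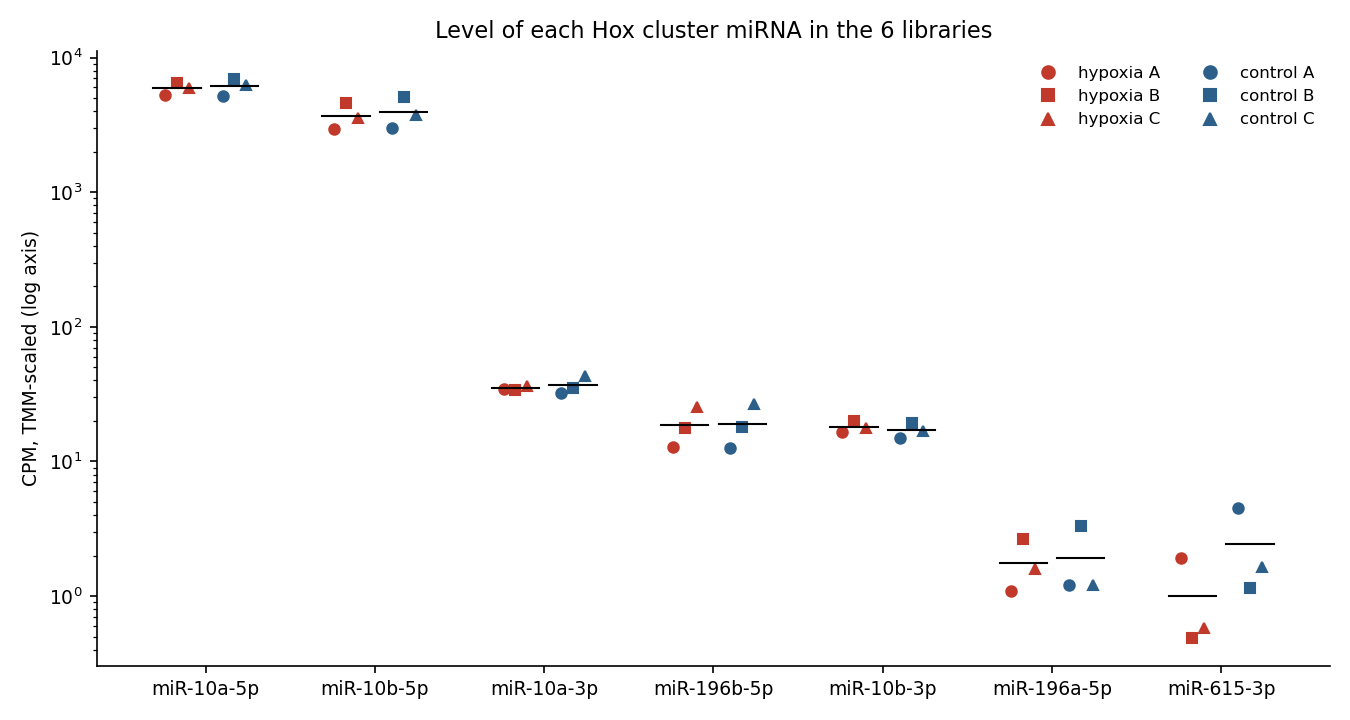
Level of the 7 Hox cluster miRNAs in CPM (TMM-scaled, log axis) in each of 3 hypoxia (red) and 3 control (blue) libraries, with the marker shape giving the letter and the bar the group mean. The levels run from 5204 CPM and above for miR-10a-5p to between 0.491 and 4.53 CPM for miR-615-3p, and the groups overlap for all 7.

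Hypoxia against control was tested with edgeR's quasi-likelihood test fitted to all 619 miRNAs, with Benjamini-Hochberg adjustment over all of them at 0.05. It called 0 of the 7 Hox cluster miRNAs. The test called 0 of 619 miRNAs in all (0%), with 42 (6.79%) at an unadjusted p under 0.05, none of them among the 7, and 17 (2.75%) of these were lower in hypoxia. By other tools, limma-voom called 0 of 619 miRNAs (43, or 6.95%, at that p) and DESeq2 1 of 1322 (0.0756%, with 45, or 3.4%, at that p), and neither called a Hox cluster miRNA. The groups did not overlap for 80 of 619 miRNAs (12.9%) and for 0 of the 7. Of the 7, 6 had a log2 fold change below 0, with a median of -0.08, beside 302 of 619 (48.8%) and a median of 0.01 for all tested.

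Without a block, intervals were narrowest for the 4 arms of miR-10. The log2 fold change of miR-10a-5p was -0.06 (SE 0.16, 95% interval -0.42 to 0.31) and that of miR-10b-5p -0.10 (SE 0.24, interval -0.64 to 0.45). The 3p arms gave -0.08 for miR-10a-3p (interval -0.52 to 0.37) and 0.09 for miR-10b-3p (interval -0.37 to 0.54). A change of 1 on the log2 scale lay outside all 4 intervals. miR-196b-5p gave -0.04 (interval -0.81 to 0.73) and miR-196a-5p -0.10 (interval -1.29 to 1.09), so the interval of miR-196a-5p held a change of that size in both directions. With the letter as a block the intervals were narrower, at -0.88 to 0.78 for miR-196a-5p and -0.32 to 0.26 for miR-196b-5p. The latter was about as narrow as the blocked interval of miR-10b-3p (-0.20 to 0.38). For miR-10a-5p and miR-196b-5p the sign turned when libraries were scaled by their totals only, with values of 0.011 and 0.016.

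For miR-615-3p the log2 fold change was -1.26 (SE 0.68, 95% interval -2.81 to 0.29, edgeR adjusted p = 0.78). Within the letters, log2 of hypoxia over control was -1.24 in A, -1.23 in B and -1.51 in C. With the letter as a block, the value was -1.30 (SE 0.39, interval -2.19 to -0.42), with an unadjusted p of 0.0083 and an edgeR adjusted p of 0.10, so it was not called there either. Over all alternatives its edgeR, limma or DESeq2 adjusted p ran from 0.10 to 0.99. It was lower in hypoxia in 3 of 3 letters, as were 121 of all 619 miRNAs (19.5%). In the fit without block, leaving out 1 library A changed the size, to -0.52 without control A and -2.17 without hypoxia A. In the blocked fit, leaving out a whole letter gave -1.36 without A, -1.36 without B and -1.24 without C. In the blocked fit 14 of 619 miRNAs were called (2.26%), 8 of them (1.29%) lower in hypoxia and 0 of them Hox cluster miRNAs. At an unadjusted p under 0.05 that fit held 132 miRNAs (21.3%), 60 of them (9.69%) lower, and miR-615-3p was the 1 Hox cluster miRNA among them.

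**Figure D3:**
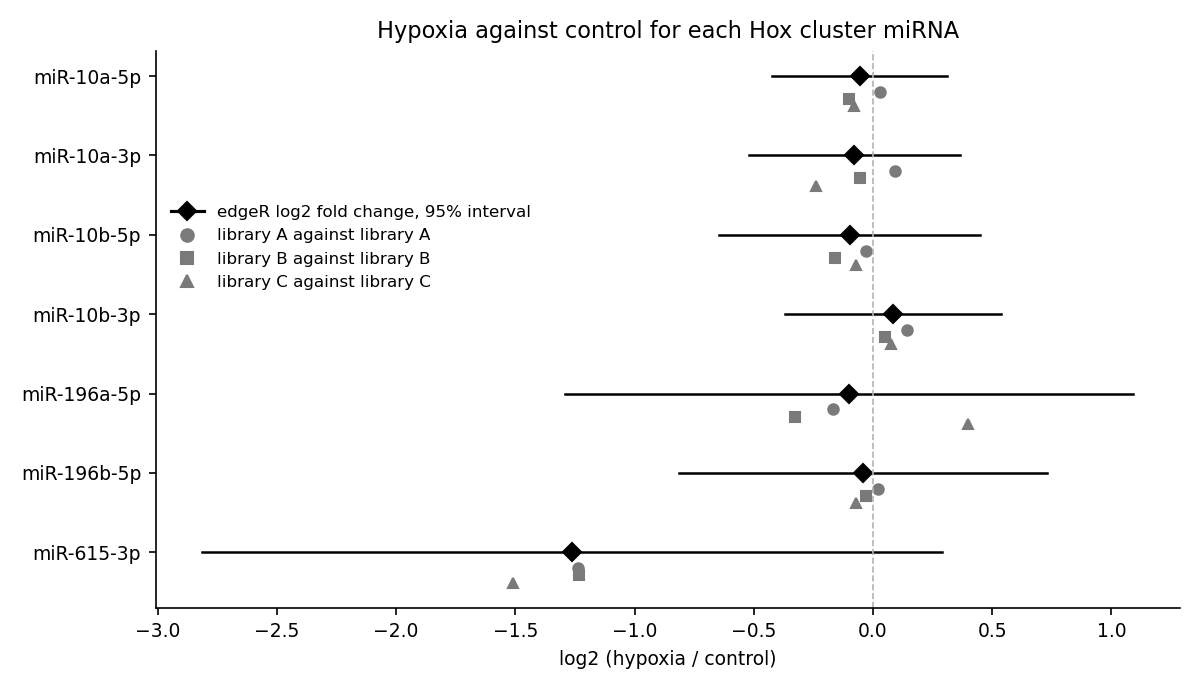
Log2 of hypoxia over control for each Hox cluster miRNA. Black diamonds with lines are the edgeR log2 fold changes with 95% intervals over 3 against 3 libraries, and grey symbols are the differences between libraries of the same letter. All 7 intervals hold 0, and the grey symbols of miR-615-3p all lie below -1.

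The paralogs and arms were also compared as ratios within a library, which need no scaling between libraries. There were 1.81, 1.42 and 1.66 counts of miR-10a-5p per count of miR-10b-5p in A, B and C of hypoxia, against 1.74, 1.36 and 1.67 in A, B and C of control. On the log2 scale (with 0.5 added to each count) the ratio was 0.70 ± 0.18 in hypoxia and 0.66 ± 0.19 in control (SD, n = 3 each), a difference of 0.04 (two-sided exact permutation p = 0.8, smallest possible 0.1). The Hoxb-encoded arm was the more abundant in 6 of 6 libraries, and its excess was smallest in the libraries with letter B. The log2 ratio of miR-196a-5p to miR-196b-5p was -3.40 ± 0.62 in hypoxia and -3.40 ± 0.99 in control (SD, n = 3 each, exact permutation p = 1). It too followed the letter, with means of -3.42 (A), -2.59 (B) and -4.19 (C).

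The 5p arm of miR-10a outnumbered its 3p arm by a ratio of 154, 191 and 162 in A, B and C of hypoxia, against 161, 197 and 145 in A, B and C of control. The log2 ratio was 7.40 ± 0.16 in hypoxia and 7.38 ± 0.23 in control (SD, n = 3 each, exact permutation p = 0.9). For miR-10b the ratio was 177, 227 and 200 in A, B and C of hypoxia, against 199, 263 and 221 in A, B and C of control. Its log2 ratio was 7.65 ± 0.18 in hypoxia and 7.82 ± 0.20 in control (SD, n = 3 each), a difference of -0.18 that did not exceed the spread between libraries (exact permutation p = 0.5). Within letters it was lower in hypoxia each time, with differences of -0.17 (A), -0.21 (B) and -0.15 (C), with an SD of 0.03 over the letters. A two-sided exact permutation of the signs gave p = 0.25, the smallest that 3 pairs allow. For each letter by itself, the 95% interval of the counting error held 0, at -0.44 to 0.10 (A), -0.45 to 0.03 (B) and -0.40 to 0.10 (C). The miR-10a arms had within-letter differences of both signs (-0.06, -0.05 and 0.16).

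**Figure D4:**
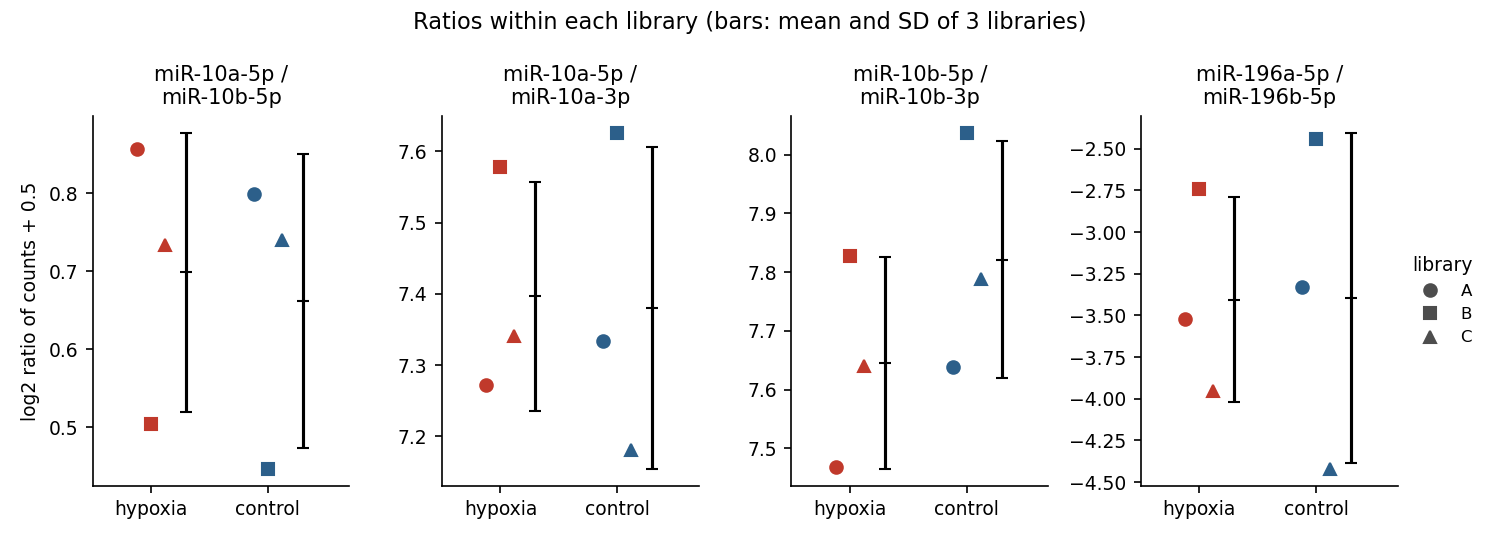
Log2 ratios of counts (plus 0.5) within each library for miR-10a-5p over miR-10b-5p, for the 5p over the 3p arm of miR-10a and of miR-10b, and for miR-196a-5p over miR-196b-5p, in 3 hypoxia (red) and 3 control (blue) libraries, with bars for mean and SD. Library B is the lowest of its group in the first panel and the highest in the other 3, and the miR-10b arm ratio is the lower in hypoxia within A, B and C.

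Whether the ratio of miR-10 to miR-196 guide arms reads body position was not tested, and this ratio was not among the planned measures. The summed miR-10 guide arms from the group 4 regions were set against the summed miR-196 guide arms from the regions near group 9 genes. They outnumbered them by 595, 542 and 352 in A, B and C of hypoxia, against 594, 563 and 359 in A, B and C of control. The log2 ratio was 8.92 ± 0.40 in hypoxia and 8.95 ± 0.40 in control (SD, n = 3 each, exact permutation p = 0.8), a difference smaller than the spread. The lowest ratio in each group was that of library C, where miR-196b-5p was highest.

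The remaining arms of these hairpins had at most 10 counts in a library and none was tested. Their sequences are shown because only the 3p arm tells the Mir196a loci apart.
miR-196a-1-3p: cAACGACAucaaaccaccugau
miR-196a-2-3p: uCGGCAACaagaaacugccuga
miR-196a-1-3p, of the Hoxb locus, had 6, 8 and 8 counts in A, B and C of hypoxia, against 1, 6 and 10 in A, B and C of control. miR-196a-2-3p, of the Hoxc locus, had 0 counts in all 6 libraries, which allows up to 0.244 CPM in the shallowest (3 counts of its total). miR-196b-3p had 1, 0 and 2 counts in hypoxia and 0 in the 3 controls, and miR-615-5p had 0 in the 3 hypoxia libraries and 0, 0 and 1 in control. A discarded arm can be missing while its locus is active, so these counts do not show which locus gave miR-196a-5p.

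Outside the Hox clusters, miR-99a, miR-99b and miR-100 are relatives of miR-10 whose 5p arms have a run of bases in common with it but another seed.
miR-99a-5p: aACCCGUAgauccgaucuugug
miR-99b-5p: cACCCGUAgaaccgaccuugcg
miR-100-5p: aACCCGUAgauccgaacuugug
miR-10a-5p shares the run guagauccga with miR-99a-5p, from its base 7 to base 16, and guagauccgaa with miR-100-5p, to base 17. miR-10b-5p shares guagaaccga with miR-99b-5p. In sum, the 2 miRNAs with the miR-10 seed held 9594 ± 1423 CPM in hypoxia and 10088 ± 1948 CPM in control, and the 3 with the miR-99 and miR-100 seed held 38726 ± 3661 CPM in hypoxia and 42648 ± 7092 CPM in control (SD, n = 3 each, two-sided exact permutation p = 0.8 and 0.5). The 2 with the miR-196 seed held 13.8, 20.4 and 26.9 CPM in A, B and C of hypoxia and 13.8, 21.4 and 27.8 CPM in A, B and C of control (3 against 3, exact permutation p = 0.8). edgeR called 0 of the 3 relatives, with log2 fold changes of -0.20 for miR-99a-5p, 0.05 for miR-99b-5p and -0.02 for miR-100-5p.

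Differences between the letters were tested in the fit with the letter as a block. Letters became a block because libraries of the same letter deviated together in these data, so this test is no independent support for such differences. edgeR's test of the letter terms, added after seeing the data, called 160 of 619 miRNAs (25.8%) and 3 of the 7 members. The 3 were miR-10b-5p (mean of the 2 libraries 2962 CPM in A, 4847 in B and 3647 in C, edgeR adjusted p = 0.0041), miR-196b-5p (12.6 CPM in A, 18.0 in B and 25.9 in C, adjusted p = 0.0031) and miR-615-3p (3.23 CPM in A, 0.822 in B and 1.12 in C, adjusted p = 0.019). The other 4 had edgeR adjusted p of 0.11 for miR-10a-5p, 0.47 for miR-10a-3p, 0.32 for miR-10b-3p and 0.083 for miR-196a-5p. All 3 relatives outside the Hox clusters were called for the letter too, with edgeR adjusted p of 0.022 (miR-99a-5p), 0.047 (miR-99b-5p) and 0.0081 (miR-100-5p). With upper-quartile scaling 5 of the 7 and 239 of all 619 miRNAs were called, miR-10a-5p (0.0058) and miR-196a-5p (0.033) among them, and without a filter miR-196a-5p was called as well (0.025). Without hypoxia C or without control C, miR-10b-5p (adjusted p = 0.084 and 0.066) and miR-196b-5p (0.088 and 0.077) were no longer called. miR-615-3p was not called without hypoxia A (0.14), hypoxia B (0.083), hypoxia C (0.11), control A (0.24) or control C (0.10). The count over all miRNAs was itself 0 without hypoxia C and 49 without control C.

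**Figure D5:**
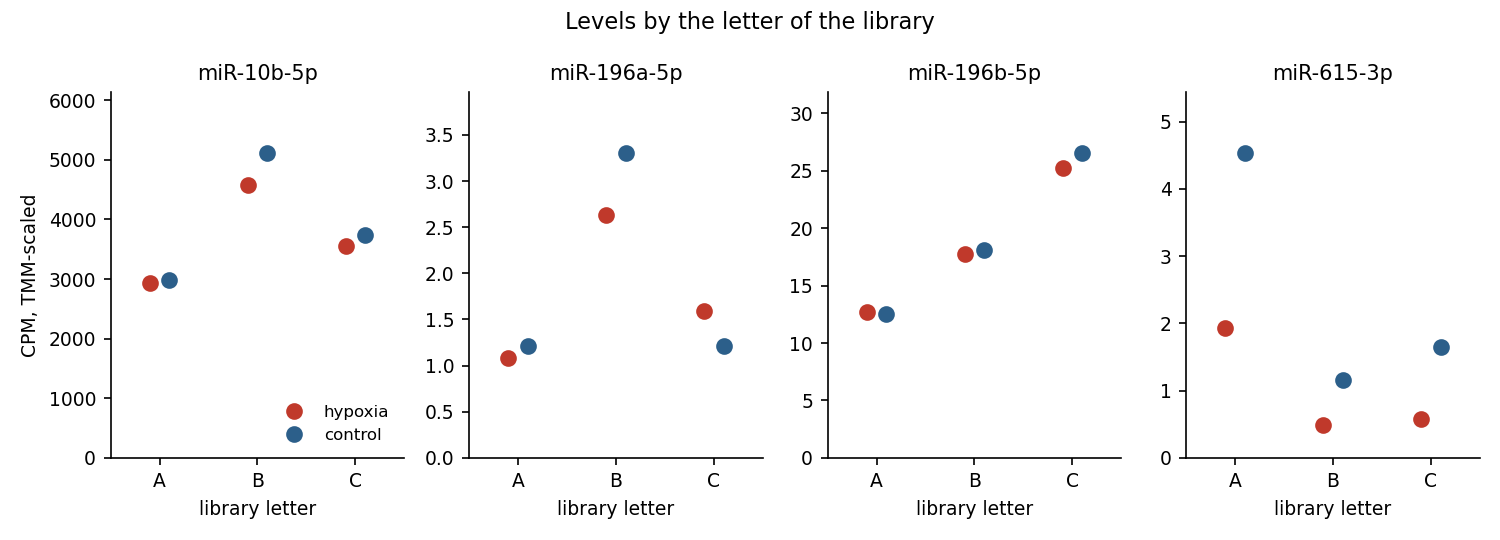
CPM (TMM-scaled, axes from 0) of miR-10b-5p, miR-196a-5p, miR-196b-5p and miR-615-3p by the letter of the library, with hypoxia in red and control in blue. miR-10b-5p and miR-196a-5p are highest in B, miR-196b-5p in C and miR-615-3p in A, in both groups.

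Some markers of other cells were called for the letter as well, beside 160 of all 619 miRNAs (25.8%). All 5 fibroblast and smooth muscle markers (miR-143-3p, miR-145a-5p, miR-199a-5p, miR-199a-3p and miR-214-3p) were called for the letter, and their sum was 50353 CPM in hypoxia A and 57427 in control A, 32966 in hypoxia B and 29830 in control B, and 26575 in hypoxia C and 26075 in control C. Blood markers, 5 of 7 tested and 2 called for the letter, summed to 1025 CPM in hypoxia A and 909 in control A, and to between 523 and 648 CPM in the other 4 libraries. Nearly all of that was miR-155-5p. The other blood marker called for the letter, miR-150-5p, was instead lowest in A (letter means 6.65 CPM in A, 20.6 in B and 18.9 in C, edgeR adjusted p = 0.00065). miR-451a, the red cell miRNA, was also lowest in A (1.34 CPM in A, 3.46 in B and 3.70 in C) but was not called, and miR-144-3p was at 0 in some libraries. Letter means were highest in A for miR-142a-3p (2.37 CPM in A, 1.05 in B and 1.33 in C) and for miR-142a-5p (2.48, 1.81 and 2.46 CPM), neither of them called. The untested miR-223-3p was also highest in A by that mean (0.664, 0.369 and 0.640 CPM). Of the 4 tested cardiomyocyte markers 2 were called for the letter, and both were highest in B in each group: letter means were 97.6 CPM in A, 150 in B and 78.6 in C for miR-1a-3p, and 9.80, 17.5 and 8.42 CPM for miR-133a-3p. miR-10b-5p and miR-196a-5p were highest in B as well. Of the 2 endothelial and the 4 tested epithelial markers 0 were called for the letter. In each group, library A was thus the highest in miR-615-3p and in these fibroblast and smooth muscle markers and the lowest in miR-10b-5p. The part of these cells in the letter differences was not tested, and in bulk samples fewer cells of a type and less RNA per cell cannot be told apart.

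The members did not follow one pattern over the 6 libraries. Pearson's r of log2 CPM, given as a description over libraries that share letters and depth, was 0.98 between miR-10a-5p and miR-10b-5p and 0.94 between miR-10b-5p and miR-196a-5p, but 0.16 between miR-196a-5p and miR-196b-5p. The arms of one hairpin gave 0.36 for miR-10a and 0.89 for miR-10b. miR-615-3p ran against miR-10b-3p at -0.87.

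Among the 361 other miRNAs with a mean of at least 10 CPM, the pattern most like that of miR-10a-5p was that of miR-24-3p (r = 0.98), followed by miR-10b-5p and miR-450a-5p (both 0.98). For miR-10b-5p it was miR-24-3p (0.98), miR-10a-5p (0.98) and miR-455-5p (0.97). miR-10a-3p was most like miR-339-5p (0.89) and miR-10b-3p most like miR-147-5p (0.97). For miR-196a-5p, against 362 miRNAs, it was let-7f-5p (0.99), and for miR-196b-5p miR-466c-5p (0.98). Most like miR-615-3p were miR-370-3p (0.98), then miR-495-3p at 0.97 and miR-543-3p at 0.96, 3 miRNAs of the imprinted Dlk1-Dio3 cluster. These were the highest of 362 values over 6 libraries, for a member with 8 to 56 counts in a library. The share of that cluster among the 362 was not counted, and a link between the loci was not tested.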

How the data were processed

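Small RNA of 3 hypoxia and 3 control libraries was sequenced on an Illumina sequencer, per the labels' protocols. The authors deposited raw read counts per known mature miRNA as whole numbers, with 1 column per library. Per the submitters' processing notes, bcl2fastq 2.0, DESeq2 and the build mm10 were used. The aligner, counting program and miRNA release are not stated in the sources used here. The table of predicted miRNAs was not used.

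Counts were filtered with filterByExpr (minimum count 10), scaled by TMM and tested in R 4.3.3 with edgeR 4.0.16, with limma 3.58.1 and DESeq2 1.42.0 as alternatives. Scripts were tested on simulated data. Standard errors were derived from the fold change and its F statistic. Ratios used a pseudocount of 0.5 and exact permutation tests over libraries, and likeness used log2 CPM with a prior count of 2. Deviations from group means correlated at 0.52, 0.43 and 0.28 between libraries of the same letter (A, B and C) and from -0.44 to 0.12 between others. All 3 lay over the limit of 0.1, but so did hypoxia B with control C (0.12), so the limit alone does not single out the same letters. Letters were taken as pairs, from the column names and values, not from the labels.

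Named miRNAs were the 7 members, the other arms of their hairpins, 3 sequence relatives, miR-210-3p, cell type markers and, for each member, the 3 miRNAs with the most similar pattern. Members and lists were chosen with earlier results of these data known. Per-library depth is given with the results, and intervals on counts cover counting error only.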

Additional observations from a re-analysis of the deposited data

How the results depend on the processing

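No Hox cluster miRNA was called in any of the 17 alternatives to the edgeR fit, and 102 of their 117 log2 fold changes kept their sign. The count of all miRNAs called, 0 in edgeR, was 1 with DESeq2, 4 without a filter, 14 with the letter as replicate block and 23 with that block without pair B. It was 0 without pair A or pair C. The blocked fit changed no call of a Hox cluster miRNA. The sign turned with scaling to library size only for miR-10a-5p (0.011) and miR-196b-5p (0.016), and with the block for miR-10a-3p without pair C (0.011) and miR-196a-5p without pair B (0.10). Leaving out 1 library at a time, the log2 fold change ran from -0.18 to 0.023 for miR-10a-5p, -0.19 to 0.041 for miR-10a-3p, -0.31 to 0.11 for miR-10b-5p, -0.023 to 0.17 for miR-10b-3p, -0.54 to 0.53 for miR-196a-5p and -0.34 to 0.27 for miR-196b-5p. Values of miR-615-3p stayed below 0, from -2.17 to -0.52, and with the block they were -1.36, -1.36 and -1.24 without pair A, B and C. The log2 ratio difference ran from -0.071 to 0.13 for miR-10a-5p to miR-10b-5p, -0.083 to 0.14 for the miR-10a arms, -0.27 to -0.068 for the miR-10b arms, -0.52 to 0.47 for miR-196a-5p to miR-196b-5p and -0.26 to 0.20 for miR-10 to miR-196, and the share difference from -0.081 to 0.049 percentage points. The cause of these turns was not tested. At a mean of at least 10 CPM miR-196a-5p and miR-615-3p were not tested. The rules for samples that stand apart need groups of 4 or more, so none was applied.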
